A study of Homo sapiens with 6 samples.

Results

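DEAD-box and DEAH-box RNA helicases were examined as a family in HepG2 cells, a line derived from a human liver cancer that still makes many hepatocyte proteins. The members are the protein-coding genes named DDX or DHX with a number and at most 1 further letter, leaving out DDX58 and DDX60. They came to 49 of the 33616 genes that the array named, 33 DDX genes and 16 DHX genes. In 3 samples the cells had received a UHMK1-specific siRNA at 30 nM, and in the other 3 a scrambled siRNA at the same concentration, both by lipid transfection, and total RNA was taken at 24 h. UHMK1 is a protein kinase that phosphorylates the splicing factor SF1. All 6 samples come from 1 cell line grown in serum-containing medium, only 1 UHMK1-directed siRNA reagent is described, and its sequence is not known here, so effects of UHMK1 loss and effects of the reagent on other genes cannot be told apart. Nothing states that the samples of a group were independent cultures. The spread behind each p-value is therefore that between these 6 arrays and could be technical. In RNA from whole cultures, fewer cells that express a gene and less RNA per cell cannot be told apart either.

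Helicases of this family use ATP to pull short RNA duplexes apart or to strip proteins from RNA, and they are named after the amino acids of a conserved ATPase motif, Asp-Glu-Ala-Asp or Asp-Glu-Ala-His in single-letter code. DEAD-box proteins mostly open short helices locally, whereas many DEAH-box proteins move along the strand. Nearly every step of RNA life uses some of them: ribosome assembly in the nucleolus, splicing, export, translation, decay and the sensing of viral RNA. Many bind a cofactor, such as a G-patch protein, that switches the ATPase on.

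UHMK1 itself stood at 8.36, 7.80 and 7.94 on the UHMK1 siRNA arrays, against 11.42, 11.24 and 11.74 on the scrambled siRNA arrays, all on the deposited log2 scale, a difference of -3.43 (SE 0.20, limma adjusted p = 0.000112) that left 9.26% of the signal. Of the hepatocyte markers, 11 measured genes had means between 14.36 and 19.19, while 3 endothelial and 3 leukocyte markers stood between 3.84 and 6.19. Of 2 fibroblast markers, PDGFRB had a mean of 5.86 and COL1A1 a mean of 10.19. UHMK1 siRNA array 2 lay low among genes with a mean of at least 6, where its median distance from the scrambled siRNA mean was -0.20, against -0.02 and -0.04 on UHMK1 siRNA arrays 1 and 3. It held the lowest UHMK1 siRNA value for 29 of the 49 helicases (59.2%), the same percentage as among those genes (59.2%). The part of that array in each result was not tested beyond leaving it out.

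After UHMK1 siRNA, 5 helicase genes fell and 0 rose at limma's adjusted p under 0.05: DHX33, DHX36, DDX23, DDX21 and DDX10. They are 10.2% of the helicases, where the background over all genes was 2.67% for falls and 0.726% for rises. The members, DHX33 included, were chosen with earlier results of these data known. Without DHX33, 4 of 48 fell (8.33%). DHX33 had the largest change of the 5, DHX36 the next. The count was 1 (DHX33) when any scrambled siRNA array was left out, 2 without UHMK1 siRNA array 3 and 4 without UHMK1 siRNA array 1 or 2. Since dim genes are seldom called, the nearer background is that of genes with a mean log2 level of at least 6, of which 6.29% fell and 1.56% rose, against 5 of the 41 helicases at that level (12.2%). Above a mean of 10 the background was 9.13% and 5 of 28 helicases fell (17.9%). With so few members called, these percentages describe the family and were not tested. Before adjustment, 21 helicases lay lower with p under 0.05 (42.9%), where the background was 10.1% over all genes and 19.4% over genes with a mean of at least 6. In the other direction 1 helicase did so, where the background was 5.21%.

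Most of the other helicases lay slightly lower. The difference was negative for 42 of the 49 members (85.7%), where 54.2% of all genes and 59.6% of genes with a mean of at least 6 were negative. The median log2 difference of the family was -0.32, beside -0.02 over all genes and -0.08 over genes with a mean of at least 6. In 28 of the 49, every UHMK1 siRNA array read lower than every scrambled siRNA array (57.1%), against a background of 13.3% over all genes and 24.2% over genes with a mean of at least 6. The median of the family relative to the scrambled siRNA mean was -0.19, -0.45 and -0.24 on UHMK1 siRNA arrays 1, 2 and 3, against 0.03, 0.01 and -0.01 on the scrambled siRNA arrays. It was -0.27 without UHMK1 siRNA array 2. Other scalings moved it nearer to 0, to -0.20 after cyclic loess normalization with 39 members negative and to -0.18 after quantile normalization with 38. DDX3X, DDX6 and DDX52 turned positive under both of these, and DDX46 under the second.

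**Figure D1:**
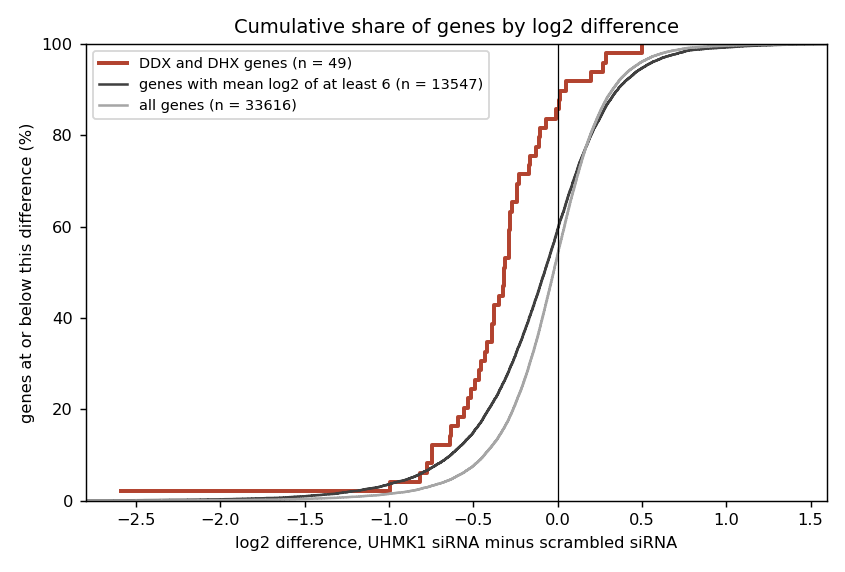
Cumulative percentage of genes (vertical axis) at or below each log2 difference, UHMK1 siRNA minus scrambled siRNA (horizontal axis), for the 49 helicases, for 13547 genes with a mean log2 level of at least 6 and for all 33616 genes. The helicase curve crosses the middle at -0.32, to the left of the other curves at -0.08 and -0.02.

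Promoters are shown for 3 of the 5 genes that fell, those with a whole searched motif in the printed stretch, so that the sequence stands beside the change. For DHX33 no promoter sequence was available, and the motif found in DDX23 runs past the end of the stretch. That the 5 share a direction follows from how they were chosen. RefSeq sequences of GRCh38.p14 held a promoter for 45 of the 49 members, from 250 bases before to 50 after the start of the gene, the first listed where there were several. Motifs of ETS factors, E-box, E2F, NRF1, YY1 and TATA were searched on both strands, of which none contains another. The stretches below run 5′ to 3′ on the strand of the gene, from 120 bases before the start through the first 30 bases of the gene, with the motif in capitals. They are DDX21 (chr10:68956050-68956199, plus strand, ETS 60 bases before the start), DHX36 (chr3:154324458-154324607, minus strand, ETS on the opposite strand 7 bases after the start) and DDX10 (chr11:108664949-108665098, plus strand, NRF1 16 bases before the start).
DDX21: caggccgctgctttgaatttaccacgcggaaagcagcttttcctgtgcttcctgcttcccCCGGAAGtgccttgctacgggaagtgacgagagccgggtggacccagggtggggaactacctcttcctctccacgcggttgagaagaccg
DHX36: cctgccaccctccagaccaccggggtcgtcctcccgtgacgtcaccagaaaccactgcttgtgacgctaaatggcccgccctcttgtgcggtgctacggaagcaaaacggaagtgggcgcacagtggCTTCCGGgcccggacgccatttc
DDX10: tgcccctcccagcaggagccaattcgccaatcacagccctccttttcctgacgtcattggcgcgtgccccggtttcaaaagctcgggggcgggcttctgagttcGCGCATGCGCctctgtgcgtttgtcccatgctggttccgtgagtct

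The ETS letters CCGGAAG were found in 18 of the 45 helicase promoters (40.0%), against 20.8% of 8053 promoters of protein-coding genes with a mean log2 level of at least 6 and 14.2% of all 15842 protein-coding promoters of that length. The E-box CACGTG was found in 7 of 45 (15.6%), against 10.6% and 8.88%. The E2F letters GGCGGGAA were in 3 of the 45 (6.67%, against 5.45% of the promoters of genes with a mean of at least 6). The NRF1 letters, those in capitals for DDX10, were in 2 (4.44%, against 2.53% there). The YY1 letters AAGATGGC were in 2 (4.44%, against 5.9% there), and the TATA letters TATAAA in 1 (2.22%, against 5.69% there). The 45 include members with a mean under 6. Of the 37 members with a mean of at least 6, 16 had the ETS letters, 5 the E-box and 3 the E2F letters. NRF1 letters were in 2 of the 37, YY1 letters in 1 and TATA letters in 1. Among the 4 changed members with a promoter in the table, ETS letters were in DDX21 and DHX36, NRF1 letters in DDX10 and YY1 letters in DDX23, the last after the start of the gene. These are matches of letters, with no measurement of binding. The median GC content was 60.7% for the helicase promoters and 62.7% for all.

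Of the 14 measured helicases of ribosome biogenesis 3 fell, DDX21, DDX10 and DHX33, where the background of falls was 2.67% over all genes and 6.29% over genes with a mean of at least 6. All 14 had a negative difference, with a median of -0.43 and a range from -2.59 to -0.07, where 54.2% of all genes and 59.6% of genes with a mean of at least 6 were negative. The group was not tested against the other helicases. With 1 array left out, 1 of them passed, or 2 without UHMK1 siRNA array 2. DHX33 is a DEAH-box protein linked to transcription of ribosomal RNA genes and to translation initiation. It read 8.81, 8.97 and 9.05 on the UHMK1 siRNA arrays, against 11.44, 11.57 and 11.58 on the scrambled siRNA arrays. The groups were far apart, with the highest UHMK1 siRNA value well under the lowest scrambled siRNA value. DHX33 fell by 2.59 on the log2 scale (SE 0.15, 95% confidence interval -2.92 to -2.26, limma adjusted p = 9.41e-05), which left 16.6% of the scrambled siRNA signal. It ranked 12 of 33616 genes by size of fall and held its call in all 14 other settings, at differences from -2.64 to -2.44. It is read by 1 probe set.

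DDX21 is an abundant nucleolar helicase that acts on RNA polymerase I transcription and on ribosomal RNA processing. Its values were 14.67, 14.57 and 14.69 after UHMK1 siRNA, against 15.47, 15.35 and 15.35 after scrambled siRNA. Replicates were close in both groups, and the groups did not overlap. DDX21 fell by 0.75 (SE 0.14, adjusted p = 0.0221), to 59.6% of the scrambled siRNA signal. Of the 6 fits with an array left out, only the one without UHMK1 siRNA array 2 kept the call (-0.71), and the other differences ran from -0.77 to -0.71. DDX10, whose yeast counterpart acts in assembly of the small ribosomal subunit, stood at 10.00, 9.80 and 9.98 after UHMK1 siRNA, against 10.54, 10.61 and 10.53 after scrambled siRNA. It fell by 0.63 (SE 0.14, adjusted p = 0.0473), close to the threshold. Its call was lost with any 1 array left out, at differences from -0.67 to -0.57, and under quantile (-0.47) and cyclic loess (-0.51) normalization.

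The remaining ribosome biogenesis helicases did not pass. DDX54 was the most even of them, at 11.27, 11.35 and 11.29 after UHMK1 siRNA and 11.80, 11.80 and 11.78 after scrambled siRNA. Its difference was -0.49 (SE 0.14, adjusted p = 0.102). DDX54 passed where only protein-coding genes, or only genes with a mean of at least 6, were tested, and with the trend and robust options of limma. DDX49 averaged 8.04 ± 0.17 after UHMK1 siRNA and 8.55 ± 0.11 after scrambled siRNA (SD, n = 3 each), a difference of -0.51 (adjusted p = 0.135). DDX31 had a difference of -0.82 with a wide interval of -1.41 to -0.22, since scrambled siRNA array 3 read 7.18 where the other two read 6.29 and 6.28. DDX56 (-0.47), DDX24 (-0.39), DDX27 (-0.33), DDX51 (-0.32) and DDX50 (-0.27) followed, and DDX55 (-0.17), DHX37 (-0.17) and DDX52 (-0.07) lay nearest to 0. DHX37 had a mean of 4.32 after UHMK1 siRNA and 4.49 after scrambled siRNA, a level at which changes are hard to see on this array. DDX50 is the close paralog of DDX21. The difference between the changes of DDX21 and DDX50 was -0.48, with an exact two-sided permutation p = 0.1 that is the smallest 3 arrays against 3 allow (adjusted p = 0.15 over 3 paralog pairs, chosen after their values were seen).

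**Figure D2:**
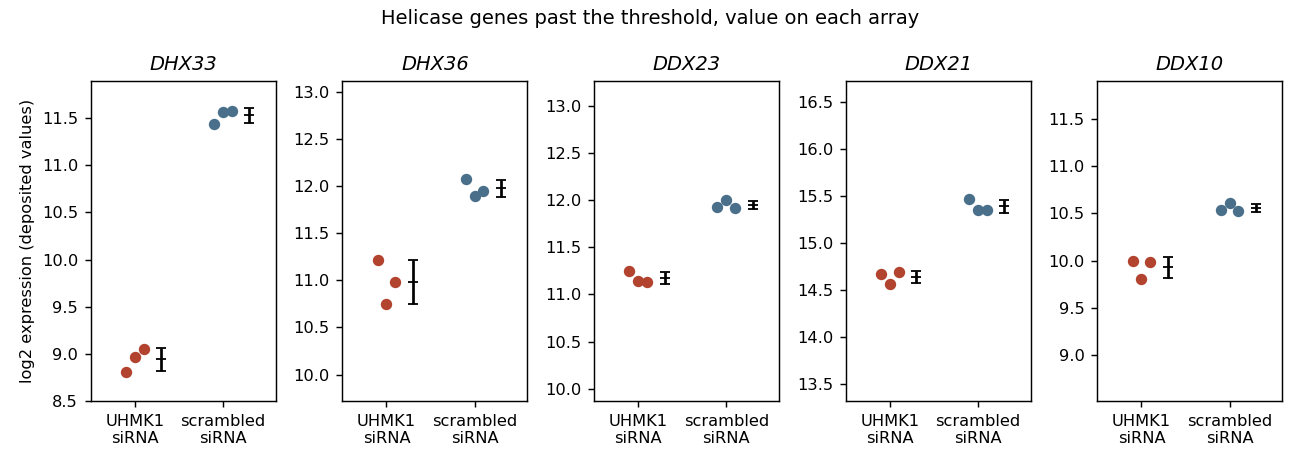
Deposited log2 expression (vertical axes, each spanning the same number of log2 units) of the 5 helicase genes past the threshold on each of the 3 UHMK1 siRNA arrays and the 3 scrambled siRNA arrays, as points, with the group mean and SD as bars. DHX33 shows the widest gap (-2.59). In all 5 genes the groups do not overlap, which their choice by a small p on these same arrays makes likely.

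Among 10 splicing helicases 1 fell and 0 rose, a share of falls near the background of 6.29% over genes with a mean of at least 6 and 9.13% over genes with a mean of at least 10. The difference was negative for 8 of the 10, against a background of 59.6% at a mean of at least 6, and the median was -0.34. DDX23 belongs to the U5 particle and helps hand the 5′ splice site over before the spliceosome is activated. It measured 11.25, 11.14 and 11.13 after UHMK1 siRNA, against 11.93, 12.00 and 11.92 after scrambled siRNA. DDX23 fell by 0.78 (SE 0.14, adjusted p = 0.0181), to 58.4% of the scrambled siRNA signal, with tight replicates in both groups. Leaving out UHMK1 siRNA array 3 ended the call (-0.76), as did leaving out any scrambled siRNA array (-0.79, -0.75 and -0.79). DHX15, which takes spent spliceosomes apart, read 12.83, 12.52 and 12.87 after UHMK1 siRNA, against 13.30, 13.27 and 13.25 after scrambled siRNA. Its difference of -0.53 did not pass (adjusted p = 0.115) and was -0.42 without UHMK1 siRNA array 2. DHX15 passed in the same other settings as DDX54.

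The DEAH-box proteins that drive successive remodelling steps of the spliceosome did not all lie on the same side. DHX16, which acts before the first catalytic step, had a difference of -0.43 (adjusted p = 0.284), and DHX8, which releases the spliced mRNA, one of -0.29 (adjusted p = 0.410). DHX38, which acts between the catalytic steps, stood at 10.38, 10.02 and 9.84 after UHMK1 siRNA, against 9.91, 9.80 and 9.72 after scrambled siRNA, so that the groups overlapped. Its difference of 0.27 (95% confidence interval -0.12 to 0.66) did not pass. DHX35 (-0.39), DDX42 (-0.38), DDX41 (-0.23) and DDX46 (-0.13) did not pass either. DHX35 has a second, dimmer probe set with a difference of 0.52, opposite in sign to the one used. DDX17, a splicing regulator and transcriptional coactivator, differed by 0.01, with a 95% confidence interval of -0.30 to 0.31 and an SD of 0.02 in each group.

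DHX36 was the only member to pass among the 6 helicases of translation and decay, where 0 rose and the median was -0.20. The background of falls was 2.67% over all genes and 6.29% over genes with a mean of at least 6. It unwinds G-quadruplexes in RNA and DNA. DHX36 stood at 11.22, 10.75 and 10.98 after UHMK1 siRNA, against 12.08, 11.90 and 11.95 after scrambled siRNA. The UHMK1 siRNA arrays were more spread (SD 0.24, against 0.09 after scrambled siRNA), yet all 3 lay under every scrambled siRNA array. DHX36 fell by 0.99 (SE 0.17, 95% confidence interval -1.37 to -0.62, adjusted p = 0.0135). The call was lost when any scrambled siRNA array was left out, at differences of -0.94, -1.03 and -1.01 (adjusted p = 0.0749, 0.0576 and 0.058). The call remained without any 1 UHMK1 siRNA array, though only just without UHMK1 siRNA array 3 (adjusted p = 0.0499).

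The other 5 helicases of the cytoplasmic group did not pass. DHX34, a factor of nonsense-mediated decay, had a difference of -0.46 (adjusted p = 0.227) at a low level, with means of 5.09 after UHMK1 siRNA and 5.54 after scrambled siRNA. DHX29, which helps the ribosome scan through structured leaders, had one of -0.28. DDX6, of mRNA decapping and P-bodies, differed by -0.11 (95% confidence interval -0.46 to 0.23). DDX3X, a translation helicase, differed by -0.11 (-0.42 to 0.21), and its Y-linked paralog DDX3Y by 0.50 (0.10 to 0.90, adjusted p = 0.201). DDX3Y was the only member whose arrays separated upward: 13.34, 13.13 and 13.50 after UHMK1 siRNA, against 12.92, 12.99 and 12.56 after scrambled siRNA. Over all genes 7.74% separated upward. The change of DDX3Y exceeded that of DDX3X by 0.61, with an exact two-sided permutation p = 0.1, the smallest possible here (adjusted p = 0.15 over 3 pairs). Probes of such close copies may bind both transcripts.

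**Figure D3:**
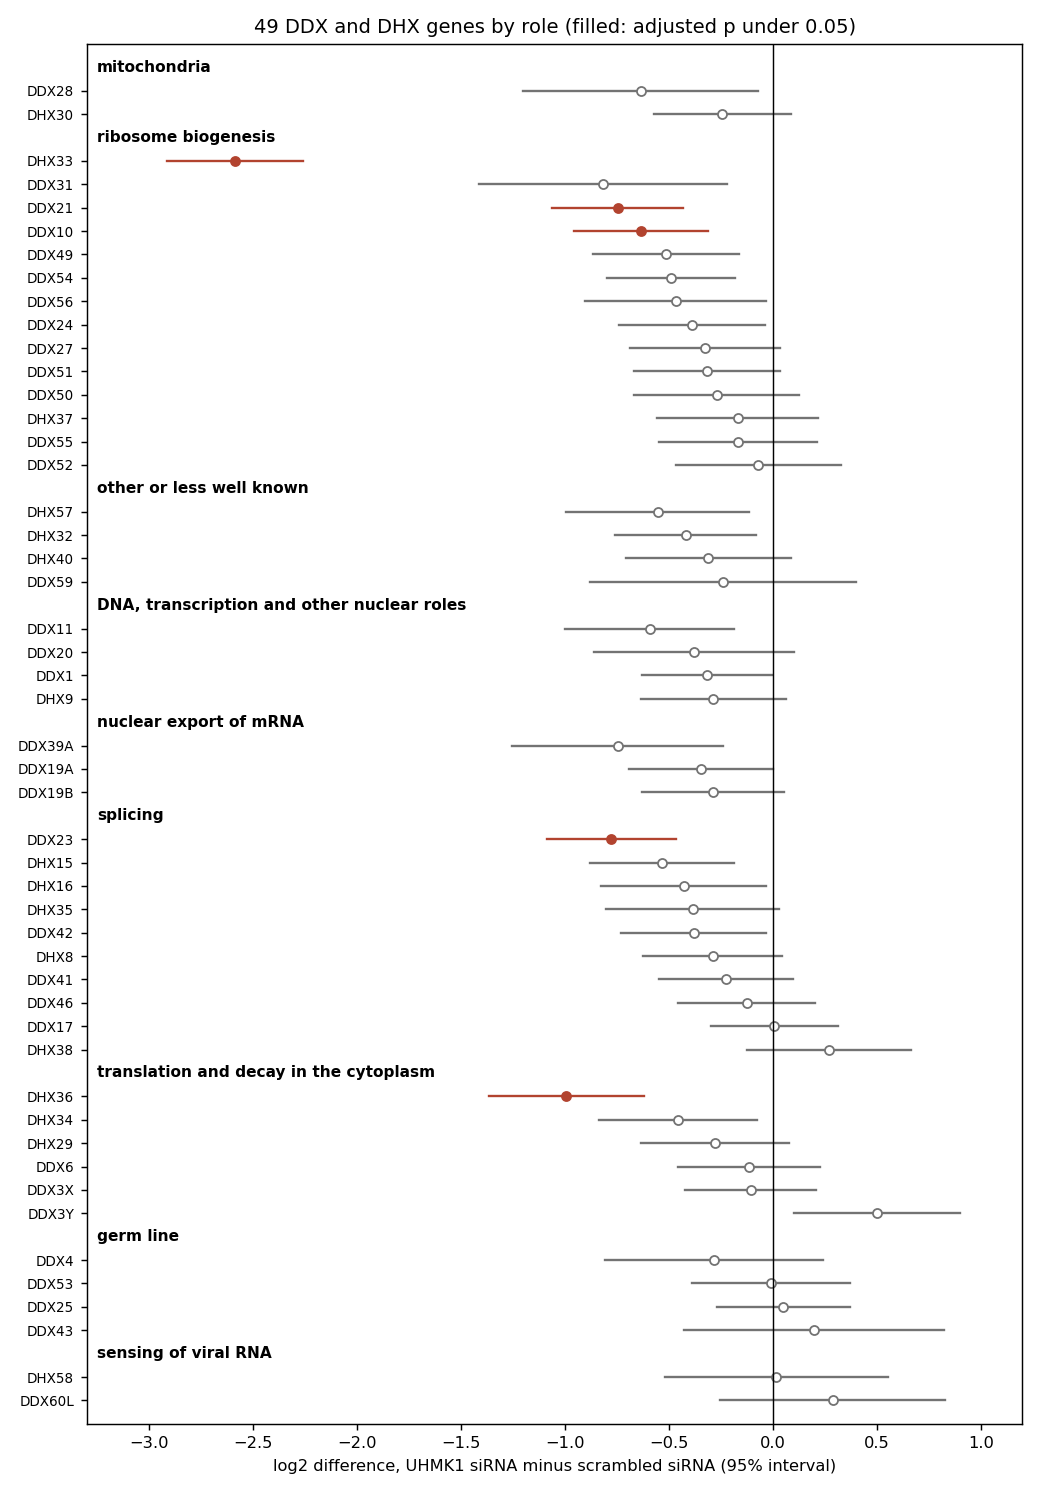
Log2 difference, UHMK1 siRNA minus scrambled siRNA (horizontal axis), with its 95% confidence interval for each of the 49 helicases (down the page), grouped by role. Filled points mark adjusted p under 0.05, which are DHX33 at -2.59, DHX36 at -0.99, DDX23 at -0.78, DDX21 at -0.75 and DDX10 at -0.63, and open points the other members, most of them left of 0.

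Of 3 helicases of mRNA export, 0 passed, where 6.29% of genes with a mean of at least 6 fell. All 3 had UHMK1 siRNA arrays under every scrambled siRNA array. The background of such separation was 13.3% over all genes and 24.2% over genes with a mean of at least 6. DDX39A, which loads export factors onto mRNA, read 9.20, 8.34 and 8.66 after UHMK1 siRNA, against 9.32, 9.67 and 9.45 after scrambled siRNA. The UHMK1 siRNA values were widely spread, and the difference of -0.75 (SE 0.22) had an adjusted p = 0.131. It was -0.55 without UHMK1 siRNA array 2 and passed at -0.98 without UHMK1 siRNA array 1 (adjusted p = 0.0497). DDX39A also passed where only genes with a mean of at least 6 were tested. DDX19A and DDX19B, near-identical helicases that release mRNA at the cytoplasmic side of the nuclear pore, had differences of -0.35 and -0.29. Their changes differed by -0.06 (exact two-sided permutation p = 0.7), and probes may bind both.

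Helicases of DNA, transcription and other nuclear roles had 0 calls among 4, with all differences negative. Over genes with a mean of at least 6, 6.29% fell, 1.56% rose and 59.6% had a negative difference. DDX11, a DNA helicase of sister chromatid cohesion, read 11.11, 10.58 and 11.07 after UHMK1 siRNA, against 11.40, 11.60 and 11.54 after scrambled siRNA. Its difference was -0.59 (adjusted p = 0.135) and -0.42 without UHMK1 siRNA array 2. Of the other probe sets of DDX11, both dim, 1 gave -0.20 and 1 gave 0.09. DDX20, the helicase of the SMN complex that assembles small nuclear ribonucleoproteins, stood at -0.38, DDX1 of the tRNA ligase complex at -0.32 and DHX9, an abundant nuclear helicase, at -0.29. Of the mitochondrial pair, DDX28, of mitochondrial ribosome assembly, measured 7.69, 6.72 and 7.63 after UHMK1 siRNA, against 8.06, 7.97 and 7.92 after scrambled siRNA. Its difference of -0.64 (adjusted p = 0.259) was -0.32 without UHMK1 siRNA array 2. DHX30 stood at -0.24.

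DHX57 had the smallest p of the 4 members of other or less well known role, with 10.03, 9.36 and 9.77 after UHMK1 siRNA, against 10.31, 10.11 and 10.40 after scrambled siRNA. The difference of -0.55 did not pass (adjusted p = 0.201). DHX32 (-0.42), DHX40 (-0.31) and DDX59 (-0.24) did not pass either. The 4 germ-line helicases had group means from 3.85 to 5.66 after UHMK1 siRNA and 3.92 to 5.61 after scrambled siRNA. These lay near the low end of the scale. The 4 had 0 calls, where 2.67% of all genes fell and 0.726% rose. DDX4, the VASA protein of germ cells, averaged 3.85 ± 0.43 after UHMK1 siRNA and 4.13 ± 0.25 after scrambled siRNA (SD, n = 3 each). The differences were 0.20 for DDX43, 0.05 for DDX25 and -0.01 for DDX53.

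The 2 members tied to viral RNA sensing had 0 calls, where 2.67% of all genes fell and 0.726% rose, and they did not lie lower. DHX58, the regulator LGP2, differed by 0.02 (95% confidence interval -0.52 to 0.55). DDX60L, an interferon-induced relative of DDX60, read 5.52, 5.28 and 4.65 after UHMK1 siRNA, against 5.16, 4.76 and 4.67 after scrambled siRNA, and its groups overlapped (difference 0.29, adjusted p = 0.654, and 0.10 to 0.54 with 1 array left out). In a list of 10 interferon response genes, 1 rose and 0 fell, where the background of rises was 0.726%. That gene was RIGI, the cytosolic RNA sensor also named DDX58, which the member rule leaves out. RIGI read 8.91, 8.81 and 8.39 after UHMK1 siRNA, against 7.64, 7.96 and 7.69 after scrambled siRNA (difference 0.94, adjusted p = 0.0271). Leaving out an array ended the call of RIGI, except for UHMK1 siRNA array 3. Of the 10 genes, 6 had a positive difference and 4 a negative one. Before adjustment, 5 lay higher and 0 lower with p under 0.05 in limma, where the background over all genes was 5.21% higher and 10.1% lower. The summed log2 level of the 10 genes ran from 60.9 to 64.3 on the UHMK1 siRNA arrays, against 57.6 to 59.2 on the scrambled siRNA arrays. Its part in the helicase results was not tested.

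Related helicases that carry other names were listed beside the family, some of them, such as MOV10, from another helicase superfamily. Of 15 measured, 0 passed in limma, where 2.67% of all genes fell and 0.726% rose, and the median was -0.07. Before adjustment, 4 lay lower (26.7%) and 2 higher with p under 0.05, where the background over all genes was 10.1% lower and 5.21% higher. Over genes with a mean of at least 6, 19.4% lay lower. The median turned to 0.02 under quantile normalization, to 0.03 under cyclic loess and to 0.02 when UHMK1 siRNA array 2 was left out. MTREX, which feeds RNA to the nuclear exosome, had the smallest p. It read 10.20, 9.60 and 10.36 after UHMK1 siRNA, against 10.77, 11.16 and 10.88 after scrambled siRNA, a difference of -0.88 (adjusted p = 0.0679). It passed where only genes with a mean of at least 6 or only protein-coding genes were tested, as did MOV10, an RNA helicase tied to Argonaute proteins, in the other direction (0.61, adjusted p = 0.0900 over all genes). MOV10 also passed under quantile and cyclic loess normalization, and MTREX also passed with the trend and robust options of limma. SNRNP200, the helicase of the U5 particle that unwinds U4 from U6, differed by -0.08, and EIF4A3, of the exon junction complex, by -0.51 (adjusted p = 0.135).

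Cofactors, meaning proteins that bind these or related helicases, had 4 falls and 0 rises among 31 measured genes, where the background of falls was 2.67% over all genes and 6.29% over genes with a mean of at least 6. The difference was negative for 27 of the 31, against 54.2% of all genes and 59.6% of genes with a mean of at least 6, and the median was -0.32. GEMIN4 and SMN1 belong to the SMN complex with DDX20, which itself did not pass. GEMIN4 read 7.91, 7.41 and 7.82 after UHMK1 siRNA, against 8.75, 8.56 and 8.77 after scrambled siRNA. It fell by 0.98 (SE 0.17, adjusted p = 0.0182). SMN1 fell by 0.78 (adjusted p = 0.0257) to 14.01 ± 0.16 after UHMK1 siRNA, against 14.79 ± 0.09 after scrambled siRNA (SD, n = 3 each), and its near-identical copy SMN2 cannot be told apart from it by probes that match both. MAGOH, a core protein of the exon junction complex and partner of EIF4A3, fell by 0.77 (adjusted p = 0.0234) to 10.67 ± 0.08, against 11.44 ± 0.12 after scrambled siRNA. The G-patch protein GPATCH4 fell by 0.90 (adjusted p = 0.0485), with 11.35, 10.77 and 11.35 after UHMK1 siRNA, against 12.11, 12.25 and 11.82 after scrambled siRNA. UTP14A, the partner of DHX37, did not pass at -1.05 (adjusted p = 0.277), and UHMK1 siRNA array 2 read 6.89 for it, where UHMK1 siRNA arrays 1 and 3 read 8.76 and 8.62. Leaving out UHMK1 siRNA array 2 kept 3 of these falls (GEMIN4, MAGOH and SMN1), leaving out UHMK1 siRNA array 1 or 3 kept 1, and leaving out any scrambled siRNA array kept 0. GEMIN4 alone stayed past the threshold without any 1 UHMK1 siRNA array.

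**Figure D4:**
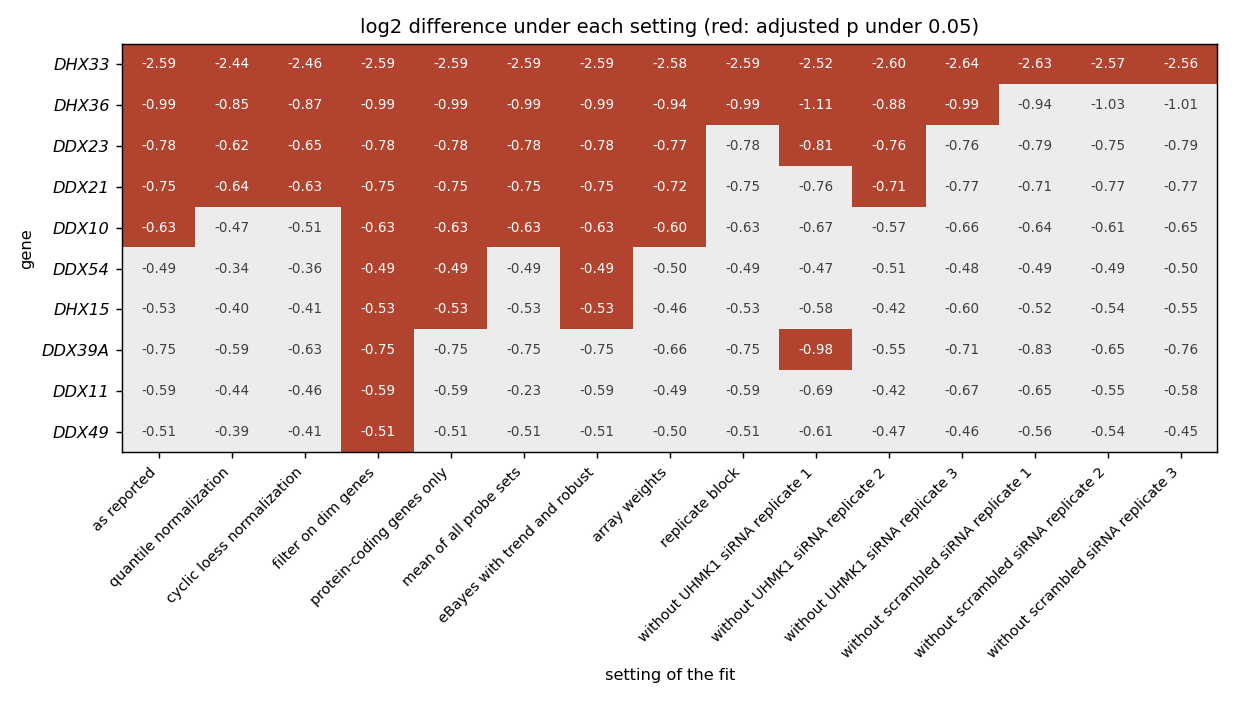
Log2 difference, UHMK1 siRNA minus scrambled siRNA, as printed in each cell for the 5 changed helicases and the 5 with the next smallest p (down the page) under the fit as reported and 14 other settings (across). Red cells had adjusted p under 0.05, and only DHX33 is red throughout.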

How the data were processed

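Each of the 6 HepG2 samples has 1 Affymetrix array, 3 per group. The deposited values are log2 expression for 135750 probe sets. The submitters' processing notes name RMA and Transcriptome Analysis Console 4.0. As a method, RMA corrects background, normalizes arrays by quantiles and summarises probes. It can compress large changes, and it fixes each array's overall level. The number of arrays limits the precision. Probe sets with 1 gene symbol were kept (36176), the one with the highest mean per gene, and symbols were updated by Entrez gene ID to RefSeq. DDX18, DDX39B, DDX47 and DDX5 are not among the members: none has a probe set with that single symbol and an Entrez match to a protein-coding gene. A probe set with the symbol DDX5 but no gene ID was used only in an added setting.

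The difference, UHMK1 siRNA minus scrambled siRNA, was fitted by limma 3.58.1 in R 4.3.3 (lmFit and eBayes, two-sided, without covariates) over all 33616 genes, with Benjamini-Hochberg adjustment over all of them and a threshold of 0.05. The fit was tested on simulated data with independent noise for each gene. These data lacked the low shift of UHMK1 siRNA array 2, so that test does not cover it. Named were UHMK1, members past the threshold, the next 5 by p, the smallest p of each role group, and from the 2 other lists genes past the threshold or else the smallest p; other members are given by role, and RIGI, MOV10, SNRNP200, EIF4A3 and UTP14A were named after their values were seen. Members, role groups and lists were chosen with earlier results of these data known, and lists were written from general knowledge. Other settings were quantile or cyclic loess normalization, a filter on dim genes (mean of at least 6), protein-coding genes only, the mean of all probe sets, eBayes with trend and robust, array weights, the replicate number as a block, and each array left out.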

Additional observations from a re-analysis of the deposited data

How the results depend on the processing

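DHX33 passed in all 14 other settings and UHMK1 as well. The number of helicases that fell, 5 as reported, was 10 with the filter on dim genes, where 41 members were tested and DDX54, DHX15, DDX39A, DDX11 and DDX49 joined, and 7 when only protein-coding genes were tested or with trend and robust variance. It was 4 under quantile or cyclic loess normalization, and 1 to 4 with 1 array left out, where fewer samples enter the fit. No member rose in any setting, though RIGI (DDX58), left out of the members, rose in the fit as reported. The median of the family ran from -0.36 to -0.18. With the replicate number as a block, 2 helicases fell, DHX33 and DHX36. The numbers are not shown to pair the samples: deviations from the group means correlated at 0.091, 0.019 and -0.074 across 13547 genes for numbers 1, 2 and 3. Over all genes, 897 fell and 244 rose as reported, against 1570 and 517 with the filter, 576 and 146 with the block, 680 and 429 under quantile normalization (61.3% of calls lower, against 78.6%), 739 and 406 under cyclic loess (64.5%), 1285 and 400 with trend and robust variance and 1054 and 402 with array weights. With only protein-coding genes tested 1326 fell and 395 rose. The totals behind these counts differ: 33616 genes were tested as reported, 13547 with the filter and 17334 where only protein-coding genes were used. Calls over all genes thus became more frequent in the same settings in which more helicases fell. With 1 array left out, 319 to 662 fell and 70 to 237 rose. For the single genes named by the rule, UHMK1 aside, 203 of 264 values kept their side of the threshold, 48 lost it and 13 gained it. Of these values 0 changed sign. Some other members did change sign, such as DDX3X, DDX6 and DDX52 under quantile and cyclic loess normalization. The probe set that carries the symbol DDX5 alone, counted as a member after its data were seen, left 5 falls and a median of -0.31.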

Other observations

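Of the 45 helicases with a promoter in the RefSeq table, 13 have a measured gene that starts on the opposite strand within 1000 bases. Of those 13 neighbours 1 fell and 0 rose. The background of falls was 2.67% over all genes and 6.29% over genes with a mean of at least 6. NOC4L, which acts in assembly of the small ribosomal subunit, starts 138 bases upstream of DDX51. It fell by 1.02 (SE 0.16, limma adjusted p = 0.0109), with means of 8.66 after UHMK1 siRNA and 9.68 after scrambled siRNA, while DDX51 differed by -0.32 and did not pass. DHX29 shares its start region with another helicase, MTREX, 295 bases upstream, and their differences were -0.28 and -0.88. DHX38 and TXNL4B, a protein related to a U5 component, start 22 bases apart and differed by 0.27 and 0.20. DDX11 and its antisense RNA DDX11-AS1 start 13 bases apart, and the antisense RNA stood at 3.88 after UHMK1 siRNA and 4.05 after scrambled siRNA. The neighbours were looked up after the values of the helicases had been seen.

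A probe set that carries only the symbol DDX5, without a gene ID, read 6.22, 7.87 and 6.78 on the UHMK1 siRNA arrays, against 5.64, 6.16 and 6.84 on the scrambled siRNA arrays. The groups overlapped, and the difference of 0.74 had an adjusted p = 0.466. The part of this probe set in the messenger of DDX5 was not tested.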
